A study of Mus musculus with 3 samples.

Results

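The 2 genes described here, Gbe1 and Phka1, encode proteins that act on glycogen, the branched glucose store of muscle. Their Nrf2 peaks were taken as all deposited peaks that overlapped a window of 360 kb given for Gbe1 (chromosome 16, 70260000 to 70620000) or a window of 250 kb given for Phka1 (chromosome X, 99650000 to 99900000), in the mm9 build. The Gbe1 window held 2 of the 2892 peaks of ChIP replicate 1 and 3 of the 3593 peaks of ChIP replicate 2. The Phka1 window held 0 peaks in both. Merged over the replicates, the peaks of the pair of genes made up 3 positions out of 4525.

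The peaks came from chromatin immunoprecipitation and sequencing (ChIP-seq) with an anti-Nrf2 antibody in wild type C2C12 cells. These mouse myoblasts fuse into myotubes when the serum is lowered. All samples, the input included, had differentiated into myotubes for 72 h and then received CDDO-Im, a synthetic triterpenoid that activates Nrf2, at 100 nmol/L for 3 h. The labels name 2 ChIP replicates and 1 input, the peak lists of both replicates were used, and no untreated sample was analysed here, so the values say where Nrf2 signal lay in treated cells and not what the compound changed. The labels do not say whether the replicates were separate cultures, and the read depth of each is unknown. A peak list holds no measure of expression, so the myotube state was not checked against marker genes.

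Glycogen is built from linear glucose chains by glycogen synthase, and the branching enzyme encoded by Gbe1 moves short stretches of those chains onto side positions, which makes the branch points. Phka1 encodes the muscle form of the alpha subunit of phosphorylase kinase. That kinase phosphorylates glycogen phosphorylase, which releases glucose units when muscle contracts, and its alpha subunit restrains the catalytic subunit. Nrf2 binds DNA as a partner of small Maf proteins at antioxidant response elements, whose core is written TGACNNNGC, and is best known for switching on genes of detoxification and of antioxidant defence.

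The 250 bases before the RefSeq start of each gene are shown because one gene had Nrf2 peaks in its window and the other had none. They were read on the strand of the gene from the RefSeq GRCm38.p6 promoter table, forward on chromosome 16 for Gbe1 and reverse on chromosome X for Phka1. Capitals mark TGAC, the first 4 letters of the element core, or its reverse complement GTCA.
Gbe1: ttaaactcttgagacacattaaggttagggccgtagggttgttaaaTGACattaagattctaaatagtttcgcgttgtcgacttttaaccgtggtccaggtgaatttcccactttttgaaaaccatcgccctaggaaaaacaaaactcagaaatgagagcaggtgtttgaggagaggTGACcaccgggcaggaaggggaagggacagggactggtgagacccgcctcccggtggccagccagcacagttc
Phka1: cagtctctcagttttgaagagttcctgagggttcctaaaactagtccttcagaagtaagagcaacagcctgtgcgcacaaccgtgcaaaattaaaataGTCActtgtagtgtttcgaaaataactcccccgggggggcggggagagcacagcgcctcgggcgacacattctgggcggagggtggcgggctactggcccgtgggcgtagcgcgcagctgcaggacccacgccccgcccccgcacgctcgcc

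Neither stretch held the whole core TGACNNNGC on either strand, and neither held TGANTCA, a related motif whose both strands read alike. TGAC stood in the Gbe1 stretch at 204 and at 73 bases before the start, counted to its first base. The Phka1 stretch had 1 match, a GTCA that began 152 bases before the start. Such short matches are common, since 80.2% of the 32851 promoter stretches in the table held TGAC on some strand. The whole core was in 10.2% of the stretches and TGANTCA in 6.75%. These matches describe letters only, and no match says only that the letters were not in this stretch. The peaks are in mm9 and the promoter table is in GRCm38.p6, so the peaks were not placed on these sequences. For the same reason, the distance of each peak to the start of its gene, the exon or intron it fell in, and the sequence under it were not analysed here. That the windows span the genes in mm9 was likewise not checked.

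At Gbe1 both replicates had a peak at the same pair of places. The lower place had the smaller chromosome position, and its peak spanned 70313568 to 70314033 in replicate 1, with a width of 466 bp and a score of 87.9. In replicate 2 the peak there spanned 70313401 to 70314119, with a width of 719 bp and a score of 214. The score is the authors' own value for each peak and is read here as minus 10 times log10 of the peak caller's p-value, so a higher score means a peak that the caller rated less likely to be background. It grows with read depth, and it was used to rank peaks within a list and not to compare amounts of binding between replicates.

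The lower peak of replicate 1 lay wholly inside that of replicate 2, and their centres were 40.5 bp apart. At the upper place, replicate 1 had a peak from 70330749 to 70331270 (522 bp) with a score of 163. Replicate 2 had one from 70330591 to 70331260 (670 bp) with a score of 380.03. These upper peaks overlapped by 512 bp, which was 98.1% of the peak of replicate 1 and 76.4% of that of replicate 2, and their centres were 84 bp apart. The peak of replicate 1 was the narrower at both places, as it was in 85.9% of the 1613 shared regions with 1 peak of each replicate.

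**Figure D1:**
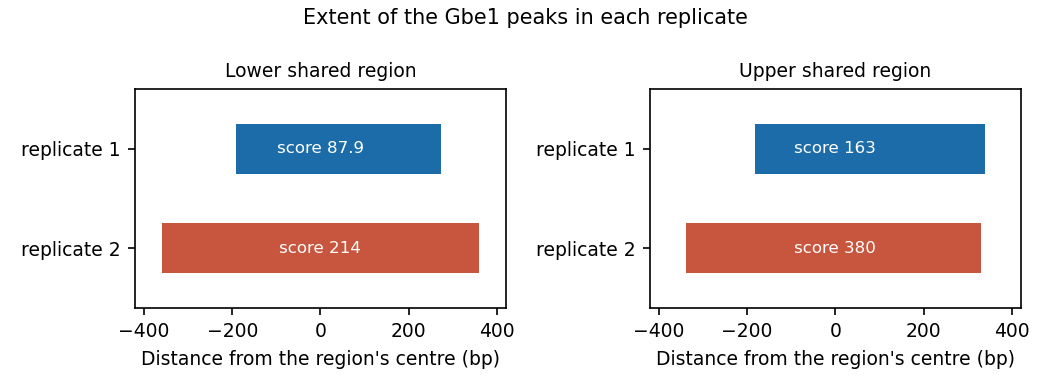
Extent of the Gbe1 peaks in ChIP replicate 1 (blue) and ChIP replicate 2 (red) at the lower (left) and upper (right) place, as distance in bp from the centre of the merged region, with the authors' score on each bar. The peak of replicate 1 lies inside that of replicate 2 at the lower place and shares 512 bp with it at the upper place.

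The upper Gbe1 peak scored higher than the lower one in both replicates. In replicate 1 the upper peak ranked 401 of 2892, with 13.8% of the list above it, and the lower one ranked 1223, with 42.3% above it. In replicate 2 the upper peak ranked 254 of 3593, with 7.04% above it, and the lower one ranked 604, with 16.8% above it. All of them scored above the median of their list, which was 80.0 in replicate 1 and 88.7 in replicate 2. They stood far below the top of the lists, where the highest scores were 1933 and 3100. Among the peaks of chromosome 16 alone, the upper and lower peaks ranked 16 and 30 of 44 in replicate 1, and 13 and 29 of 86 in replicate 2.

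**Figure D2:**
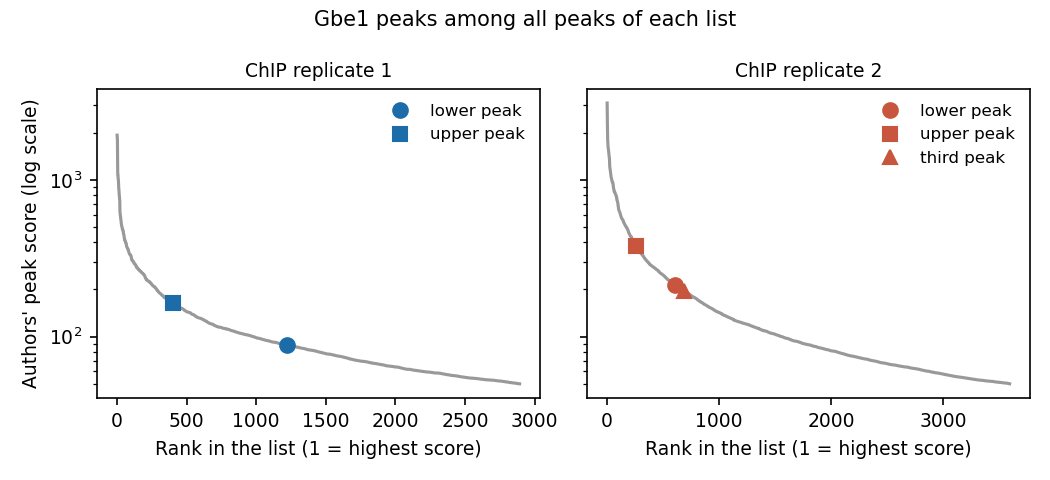
Authors' peak score (log scale) against rank in the list for all peaks (grey line) of ChIP replicate 1 (left) and ChIP replicate 2 (right), with the Gbe1 peaks as symbols. The upper peak ranks 401 and 254, the lower one 1223 and 604, and the third one, found in replicate 2 only, 691.

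Overlap of a peak with the other list was common, so the 2 shared Gbe1 regions are to be read against it. In replicate 1, 66.1% of all peaks overlapped one of the other list by at least 1 bp, and in replicate 2 the share was 50%. At Gbe1 this held for 2 of 2 peaks in replicate 1 and for 2 of 3 in replicate 2. The shares over all peaks, like those by score below, include the more crowded chromosomes 1 and X. Chromosomes 2 to 19 held 903 of the 1750 shared regions, with 1312 peaks of replicate 1 and 2238 of replicate 2. Peaks with scores near those of the Gbe1 peaks had a partner in 69.9% of 621 cases in replicate 1 at a score of 75 to 100 (the lower peak), and in 93.1% of 189 cases at 150 to 200 (the upper peak). In replicate 2 the shares were 78.0% of 168 peaks at a score of 200 to 250 and 100% of 47 peaks at 350 to 400. The 1750 shared regions were ordered by whichever rank was lower down its list, and in that order the upper Gbe1 region came 221 and the lower one 659. Replicate 2 had the higher score at both Gbe1 regions, as it did at 66.1% of all shared regions.

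A further Gbe1 peak, called the third, was found in replicate 2 only. It spanned 70506591 to 70507261 (671 bp), with a score of 194 and rank 691, and 19.2% of the list scored higher. Within replicate 2 its rank was near that of the lower Gbe1 peak, 604. The nearest peak of replicate 1 was the upper Gbe1 peak, with its centre 176 kb away. Of the 284 peaks of replicate 2 with a score of 150 to 200, 98 had no partner in replicate 1. On chromosomes 2 to 19, 77 of 183 such peaks had none. Among the 1796 peaks of replicate 2 without a partner, it had the 68th highest score, and on chromosome 16 it came 5 of 50. With the depth of replicate 1 unknown, the lack of a peak there does not show that Nrf2 was absent from this place.

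The lower and upper Gbe1 peaks stood 17.2 kb apart, and the third one lay further along the direction in which Gbe1 is transcribed in GRCm38.p6. The distance between the centres of the lower and upper peaks was 17.209 kb in replicate 1 and 17.165 kb in replicate 2. That peak was 176 kb beyond the upper one in replicate 2. Neighbours at the distance of the lower pair were not rare, since on chromosomes 2 to 19 another peak of the same list stood at that distance or nearer for 35.8% of peaks in replicate 1 and 26.8% in replicate 2.

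**Figure D3:**
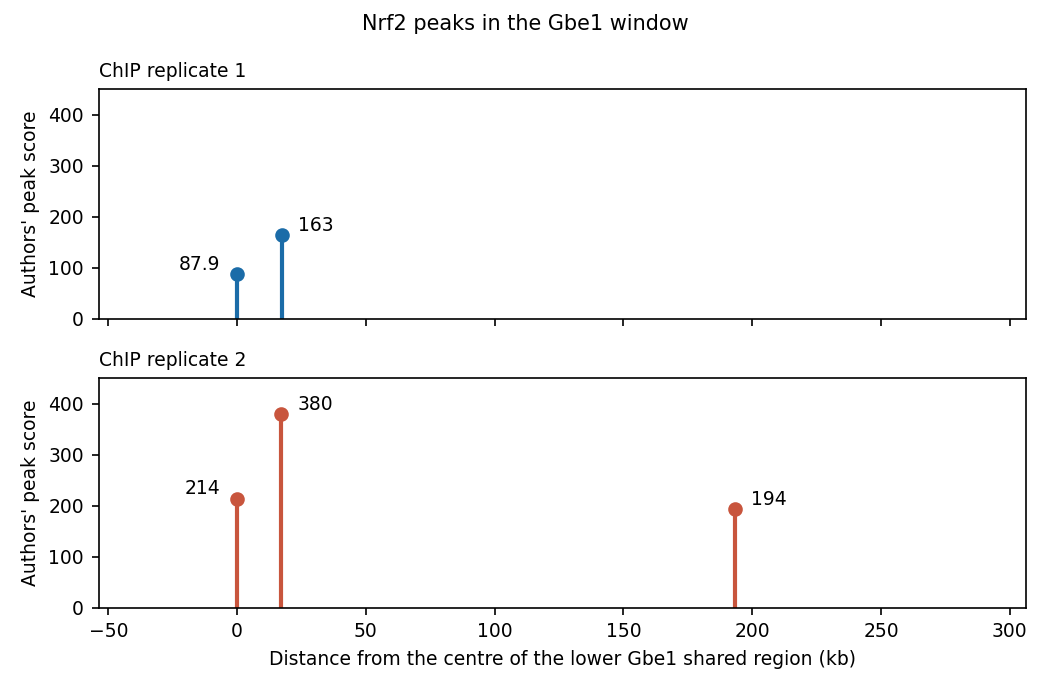
Authors' score of each peak in the Gbe1 window in ChIP replicate 1 (top) and ChIP replicate 2 (bottom), against its distance in kb from the centre of the lower shared region, with the x axis spanning the whole 360 kb window. Both replicates have a peak at the lower and upper places, 17.2 kb apart, and replicate 2 has one more peak with a score of 194.

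Outside the window, peaks were sparse for several Mb on either side of Gbe1. In replicate 1 the nearest peak below the window ended 13.1 Mb away, with a score of 86.2, and the nearest one above began 3.76 Mb away, with a score of 50.3. In replicate 2 these distances were 4.44 Mb (score 70.1) and 2.99 Mb (score 50.6). Only the lower flanking peak of replicate 1 had a partner in the other list. The gaps between the Gbe1 peaks and these flanking peaks were ranked among all gaps between neighbouring peaks on chromosomes 1 to 19 and X. In replicate 1 they were the 21st and 176th longest of 2767, with a median gap of 54.0 kb. In replicate 2 they were the 106th and 203rd longest of 3462, with a median gap of 159 kb. These medians include the more crowded chromosomes 1 and X. On chromosomes 2 to 19 the median distance to the nearest peak on either side was 119 kb in replicate 1 and 145 kb in replicate 2. On chromosome 16 it was 335 kb and 126 kb. The nearest shared regions on either side bounded a stretch of 18.6 Mb, from 57190218 to 75753027. In that stretch replicate 1 had 3 peaks, 2 of them in the Gbe1 window, and replicate 2 had 5, of which 3 were in it. The peaks of the stretch that lay outside the window scored 50.3 in replicate 1 and from 50.6 to 70.1 in replicate 2. These scores were below every Gbe1 peak of their list. The stretch was drawn between shared regions, so these peaks had no partner by construction, and the contrast is no test. The shared regions at its ends scored 86.2 and 83.6 in replicate 1, below the Gbe1 peaks of that list. In replicate 2 they scored 284 and 330. That was above the lower Gbe1 peak (214) and the Gbe1 peak found in replicate 2 only (194), and below the upper Gbe1 peak (380).

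Windows of this size were counted over the genome for comparison. When chromosomes 1 to 19 and X were divided into 7243 successive windows of 360 kb, 12.3% held at least 1 shared region and 3.13% at least 2, and 72.9% held no peak in either list. On chromosomes 2 to 19, without the more crowded chromosomes 1 and X, these shares were 10.0%, 1.43% and 75.4% of 6234 windows. On chromosome 16 alone these shares were 9.63%, 1.11% and 79.6% of 270 windows, and a peak was present in 10.7% of them in replicate 1 and 19.6% in replicate 2. The Gbe1 window was proposed with results of these lists known, so the shares describe where it stands and are no test. Of the 903 shared regions on chromosomes 2 to 19, 58 (6.42%) had, like both of the Gbe1 regions, exactly 1 other shared region within 100 kb and no further one within 1 Mb.

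At Phka1 neither replicate had a peak. Replicate 1 had none between 88843056 and 109142245 on chromosome X, a gap of 20.3 Mb that was its 3rd longest of 2767 gaps between neighbouring peaks on chromosomes 1 to 19 and X. In replicate 2 the gap around the window ran from 93581671 to 100708954, over 7.13 Mb, and was the 34th longest of 3462. These ranks include the short gaps of the more crowded chromosome 1 and of the crowded first part of chromosome X. The flanking peaks of replicate 1 ended 10.8 Mb below the window, with a score of 77.3, and began 9.24 Mb above it, with a score of 92.5. In replicate 2 a peak with a score of 52.4 ended 6.07 Mb below the window.

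The nearest peak to the Phka1 window in either list was one of replicate 2 that began 0.809 Mb above it. It spanned 100708955 to 100709603 with a score of 103, a second one with a score of 156 had its centre about 1.57 kb further up, and neither had a partner in replicate 1. The nearest shared region above the window began 9.24 Mb away, at 109142128, with scores of 92.5 and 77.7. The nearest one below ended 25.8 Mb away, at 73844674, and had the highest score of replicate 1. No shared region lay in the 35.3 Mb between them.

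**Figure D4:**
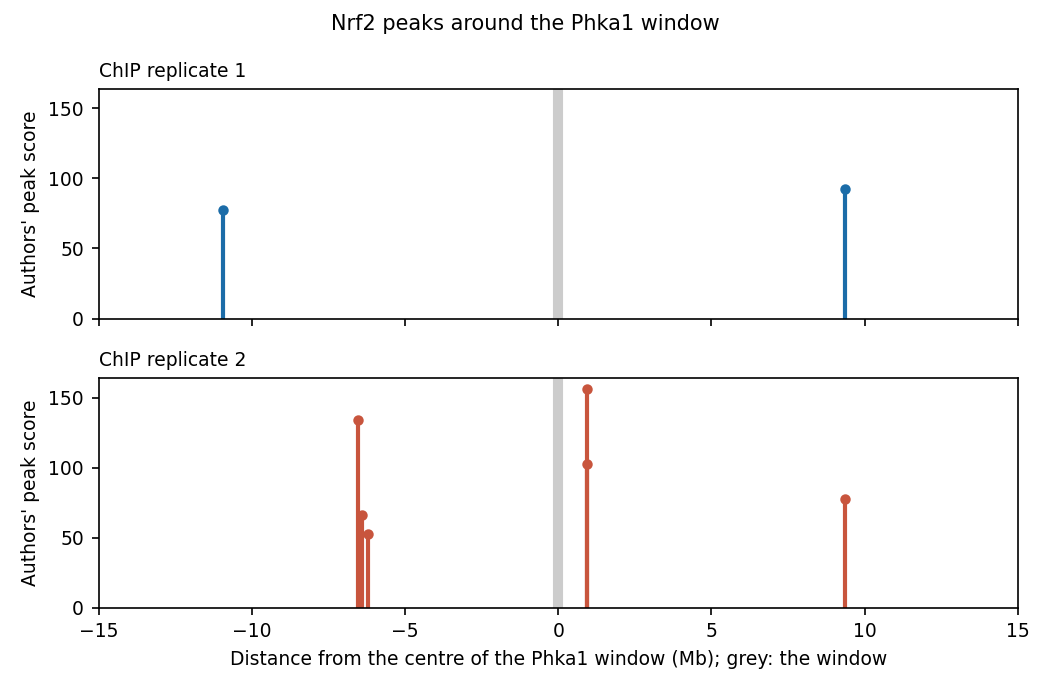
Authors' score of each peak within 15 Mb of the centre of the Phka1 window (grey band, 250 kb wide) in ChIP replicate 1 (top) and ChIP replicate 2 (bottom), against distance in Mb. The band is empty in both replicates, and the nearest peaks are a pair of replicate 2 that begins 0.809 Mb above it.

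An empty window was the usual state on chromosome X. Of 665 successive windows of 250 kb on that chromosome, 89.0% held no peak in either list and 5.71% held a shared region. A peak was present in 7.22% of them in replicate 1 and in 9.92% in replicate 2. From 33 Mb to the end of the chromosome, beyond its crowded first part, replicate 1 had 66 of its 566 peaks (0.495 per Mb). Replicate 2 had 99 of its 515 there (0.742 per Mb). That is an average of 0.124 and 0.186 peaks in a window of this size. The 33 Mb limit follows the crowding in these same lists, so these densities are no independent reference. The empty Phka1 window shows that no peak there reached the lowest score in the lists, which was 50 in both, and weaker signal or binding further from the window would not be seen.

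The Gbe1 and Phka1 windows differed in their listed peaks, with 2 shared regions in one and none in the other. No test of this difference was made, because the windows differ in length and chromosome and were chosen with the lists known. The study's own account of binding at these genes was not used here, and no comparison with it was made. In the gene order of GRCm38.p6, the nearest protein-coding genes on either side were Speer2 and Robo1 for Gbe1, and Hdac8 and Gm9112 for Phka1.

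Peaks near the other glycogen genes were not counted, for the same reason of builds, and their promoter letters were searched instead. A list of 29 genes of glycogen synthesis, breakdown and control matched the RefSeq promoter table in 26 cases. Of the 26, 5 (19.2%) had TGACNNNGC within 250 bases before a start, against 11.5% of all 27025 genes in the table. These were Hk1, a hexokinase that traps glucose as its phosphate, Pgm2, a phosphoglucomutase family member, Ppp1r3a and Ppp1r3d, which bring protein phosphatase 1 to glycogen, and Epm2a, which encodes the glycogen phosphatase laforin. Gbe1 and Phka1 were not among them. TGANTCA was in 0 of the 26, against 7.82% of all genes. These counts were not tested, and they say nothing about binding.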

How the data were processed

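Nrf2 ChIP-seq peak lists of 2 replicates were analysed, and the input reads are not used here. The submitters' processing notes name MACS 1.4, bcl2fastq 2.15.0, Bowtie2 without a version, and the mm9 build, and give neither settings nor a control. Each list holds positions and the authors' deposited score per peak, with replicates listed separately. Positions count from 1.

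Peaks overlapping by at least 1 bp were called shared, and chains were merged. Ranks run from the highest score. Distances are between centres, except those to a window's edge. Chromosomes were divided into windows up to the last peak end in either list, leaving out the incomplete last one. No test was run. The text names every peak in both windows, the nearest peaks outside, and the 3 shared regions closest in rank to each member. The genes, windows and lists were chosen with earlier results of these data known. The overlap code was tested on a list made from replicate 1, with a known set of its peaks shortened in place and a copy of all peaks moved away. Motifs were sought on both strands. Alternatives were overlap of 50% of both peaks, centres within 200 bp, score minimums of 100 and 200, wider windows and leaving out a replicate. Python 3.11.15, NumPy 2.4.6, pandas 2.3.3 and matplotlib 3.10.9 were used.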

Additional observations from a re-analysis of the deposited data

How the results depend on the processing

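Requiring overlap of 50% of both peaks, or centres within 200 bp, left 2 shared regions in the Gbe1 window and 0 in the Phka1 window. At 50% overlap, the share of all peaks with a partner was 52.2% in replicate 1 and 42.0% in replicate 2. With a score of at least 100, that share was 72.3% in replicate 1 and 43.0% in replicate 2. The Gbe1 window then had 1 shared region and 1 peak in replicate 1. With a score of at least 200 it had 0 shared regions and 0 peaks in replicate 1, because the upper peak there scored 163. Replicate 2 then still had 2 of its 3 peaks. Widening the windows by 100 kb added no peak. Widening them by 1 Mb, which was chosen after seeing the data, gave 2 peaks of replicate 2 beside Phka1 and added none at Gbe1 or in replicate 1. Leaving out each replicate in turn gave 2 to 3 positions with a peak at Gbe1 and 0 at Phka1. It leaves no pair of lists, so shared regions have no such value. Of 32 alternative values, 27 stayed equal or within 1.5 times the reported one and 5 moved further. The Phka1 counts of 0 could not change with another overlap rule, a score minimum or a replicate left out. Those values are among the 27 by construction, and only a wider window could add a peak there. No paired analysis was possible because only 1 group was compared. The unknown depth limits any reading of a missing peak.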

Other observations

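The shared regions elsewhere that stood closest in rank to those of Gbe1, by the sum of the rank differences in both lists, lay on several chromosomes. For the lower Gbe1 region they were on chromosome 14 (64487312 to 64488031, scores 87.8 and 212, and 73809716 to 73810441, scores 88.1 and 218) and on chromosome 4 (11015683 to 11016257, scores 87.8 and 206). For the upper Gbe1 region they were on chromosome X (24534940 to 24537102, scores 164 and 383, and 29136739 to 29138954, scores 161 and 401) and on chromosome 19 (4517449 to 4518125, scores 157 and 388). The 2 regions on chromosome X are wider than 2 kb, and the Gbe1 regions are 719 and 680 bp wide. The genes near these regions were not analysed here.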
